A study of Gallus gallus with 3 samples.

Results

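Extracellular matrix and adhesion genes were followed in DT40, a chicken B cell lymphoma line that grows in suspension. The genes were chosen by symbol: collagens, laminins, matrilins, integrin subunits, cadherins, claudins other than CLDN3, matrix metalloproteinases (MMP), TIMPs, ADAM and ADAMTS proteases, SPARC, fibronectin and OPCML. The rule found 54 genes on 58 probes among the 3870 genes that could be named through RefSeq accessions on an Agilent chicken array. Fibronectin matched no named probe and is not analysed here. The rule also took in CLDND1, a claudin-domain protein, and ITGB1BP3, named as an integrin beta 1 binding protein, neither of which is a claudin or an integrin.

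The 3 groups were DT40 cells exposed for 4 h to the peptide BP5 at 0.02 µg/ml, DT40 cells exposed for 4 h to the peptide BSP-II at 2 µg/ml, and untreated DT40 cells (0 µg/ml). Both peptides derive from the bursa of Fabricius, the avian site of B cell development. All cultures stood in the same medium with fetal bovine and avian serum, and the model is a single tumour line. Each group was represented by 1 array, so no test between groups was possible and no spread between cultures is known.

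Extracellular matrix is laid down mainly by fibroblasts, cartilage, epithelia and endothelium, as collagens, laminins and linker proteins such as matrilins. Integrins are dimers of an alpha and a beta subunit that hold cells to this matrix, while cadherins and claudins join neighbouring cells. MMPs and ADAM proteases cut matrix and surface proteins, and TIMPs inhibit them. Blood cells use some of these proteins, among them leukocyte integrins of the beta 2 family.

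Signals are given as scaled signals, in which 100 is the 75th percentile of all probes on the same array. A gene is called detected where a probe was well above background by the scanner software's flag. The lowest detected signal was 27.5 on the BP5 array, 23.8 on the BSP-II array and 11.9 on the control array, so the control array had the lowest limit of detection. Most members are represented by 1 probe (51 of 54), and the signals of different probes cannot be set against each other. No probe was saturated. All arrays lay on 1 slide, but the control was scanned apart (scan 1) from the peptide arrays (scan 2). Every ratio to the control therefore holds scan and treatment together, and they cannot be told apart.

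By the well-above-background flag, a minority of these genes was detected. Of the 54 members, 19 (35.2%) were detected on the BP5 array, 21 (38.9%) on the BSP-II array and 20 (37.0%) on the control array. Of 3827 named genes with usable probes, 67.7% were detected on the BP5 array, 68.6% on the BSP-II array and 73.0% on the control array. At least 1 array detected 23 members (42.6%, against 73.4% of all named genes), and all 3 arrays detected 16 (29.6%, against 66.9%). A signal of at least 3 times the array's detection limit was reached on at least 1 array by 16 members (29.6%) and by 65.5% of all named genes. At the other end, 15 members (27.8%) lay at the floor of the scale on all 3 arrays, against 12.4% of all named genes. With the looser flag for a positive signal most members counted as detected, 28 (51.9%) on the BP5 array, 31 (57.4%) on the BSP-II array, 37 (68.5%) on the control array and 39 (72.2%) on at least 1. The same flag took in 78.8%, 80.4%, 84.9% and 87.6% of all named genes. These shares describe 3 arrays and were not tested. In bulk RNA of this kind, fewer cells of a type and less RNA per cell cannot be told apart.

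**Figure D1:**
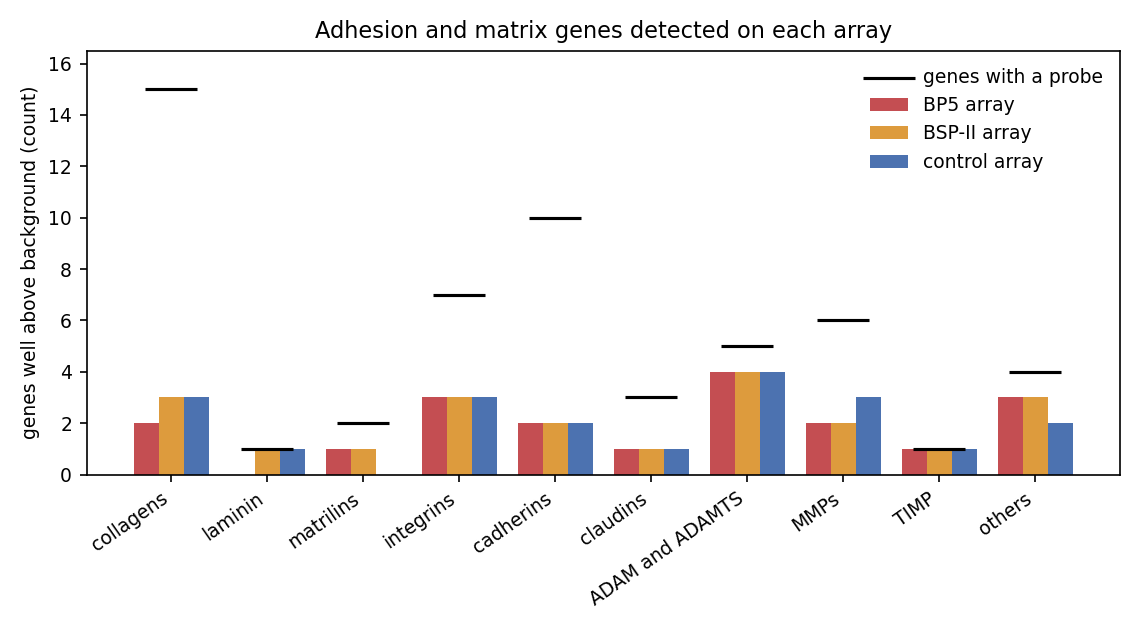
Number of genes well above background on the BP5, BSP-II and control arrays (bars) in each family, with the number of genes that had a usable probe (black line). Of 15 collagens at most 3 were detected on an array and of 10 cadherins 2, while 4 of 5 ADAM and ADAMTS genes were detected on every array.

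Most collagens were not detected. Of 15 collagen genes, 3 were detected on at least 1 array: COL2A1, COL6A2 and COL18A1. COL2A1, the fibrillar collagen of cartilage, had scaled signals of 5196 with BP5, 5436 with BSP-II and 4359 in the control, far above the detection limit on every array. COL6A2, a chain of the beaded-filament collagen VI, had 225.3 with BP5, 245.5 with BSP-II and 262.8 in the control. The other chains of that trimer with a probe, COL6A1 and COL6A3, were undetected on all 3 arrays.

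COL18A1, the basement membrane collagen from which endostatin is cut, was dim. It had 36.2 with BSP-II and 33.5 in the control, and its 15.4 with BP5 was not well above background. The undetected collagens were the fibrillar or fibril-associated genes COL1A2, COL3A1, COL5A1, COL9A1, COL12A1, COL14A1, COL20A1 and COL22A1, with the basement membrane chains COL4A1 and COL4A2. COL4A1 and COL4A2 had more than 1 probe each, and so had COL22A1, and no probe of these genes was well above background on any array.

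Among other matrix proteins, SPARC, a secreted collagen-binding glycoprotein, lay at the floor on all arrays, as did MATN1, a matrilin of cartilage. LAMB2, the laminin beta 2 chain, had 25.2 with BSP-II, 1.06 times the lowest detected signal there, and 23.9 in the control, 2.02 times that array's lowest. Its 17.8 with BP5 was not well above background. Probes around LAMB2 had a median log2 ratio of -1.09 for BP5 against control, so the area as a whole read low on the BP5 array. MATN3, a second cartilage matrilin, was detected with BP5 (46.1) and with BSP-II (82.0), while its 5.80 in the control was not well above background.

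Of 7 integrin genes, the alpha subunits ITGA3, ITGA6 and ITGAV were detected on every array. ITGA3, which pairs with the beta 1 subunit as a laminin receptor, had 2036 with BP5, 2764 with BSP-II and 2909 in the control. ITGA6, another laminin receptor subunit, had 130.2 with BP5, 98.8 with BSP-II and 119.7 in the control. ITGAV, part of receptors for vitronectin and fibronectin, had 109.1 with BP5, 83.0 with BSP-II and 119.2 in the control. ITGA3 was lowest and ITGA6 highest with BP5, and ITGAV was lowest with BSP-II, under every scaling tried. For ITGA6 the log2 ratio of BP5 to control, 0.12 ± 0.21, was smaller than the scanner software's spot error given after ±.

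ITGA1, a collagen receptor subunit, and ITGA8 were not detected. Of the beta subunits only ITGB2 and ITGB5 had a named probe. ITGB2, the beta chain of the leukocyte integrins, lay at the floor on all 3 arrays, and ITGB5, a partner of ITGAV, was not well above background. No dimer can be assembled from the detected genes, because no beta subunit was detected. The beta 1 subunit is not among the genes named here. ITGB1BP3 read 66577 with BP5, 79576 with BSP-II and 47550 in the control. Before scaling its signals were nearly equal (119006, 122644 and 121154), so its scaled signals differ through the arrays' 75th percentiles. With quantile normalization its log2 ratio to control was 0.17 with BP5 and 0.13 with BSP-II.

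Of 10 cadherins, 2 were detected, both on every array. CDH1, epithelial cadherin, had 67.6 with BP5, 87.8 with BSP-II and 93.2 in the control. CDH11, a cadherin of mesenchyme and bone-forming cells, had 487.1 with BP5, 423.5 with BSP-II and 658.8 in the control. CDH1 was lowest with BP5 and CDH11 highest in the control under every scaling tried. The neural cadherin CDH2, the endothelial cadherin CDH5, and CDH4, CDH6, CDH7, CDH8, CDH10 and CDH20 were undetected on all 3 arrays.

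Of 3 claudins, components of tight junctions, CLDN1 was detected with BP5 (31.4) and BSP-II (33.8) but not in the control, where it read 11.4. CLDN11 had 15.9 in the control and was not well above background with BP5 (5.67) or BSP-II (10.0). Its control signal is lower than the detection limits of both peptide arrays. CLDN5, the endothelial claudin, was not detected. CLDND1 was detected throughout, with 769.7 with BP5, 664.5 with BSP-II and 576.9 in the control.

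Of 5 ADAM and ADAMTS genes, 4 were detected on every array. ADAM10, which cleaves Notch and many other surface proteins, had 340.9 with BP5, 261.0 with BSP-II and 323.1 in the control. ADAM9 had 303.2 with BP5, 348.9 with BSP-II and 266.1 in the control. ADAM17, the enzyme that releases TNF in mammals, was dim at 32.9 with BP5, 24.8 with BSP-II and 20.3 in the control. ADAMTS19, a secreted member of the ADAMTS branch, had 137.8 with BP5, 154.3 with BSP-II and 119.2 in the control. ADAM10 was lowest, and ADAM9 and ADAMTS19 highest, with BSP-II. The log2 ratios of BP5 to BSP-II for ADAM9 (-0.20 ± 0.21) and ADAMTS19 (-0.16 ± 0.22) were smaller than their spot errors. ADAM20L was not detected.

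Among 6 MMPs, MMP2, the gelatinase made by many stromal cells, had 88.6 with BP5, 73.7 with BSP-II and 80.4 in the control. MMP16, a membrane-bound MMP, had 238.3 with BP5, 243.7 with BSP-II and 252.6 in the control. MMP9, the gelatinase of granulocytes and macrophages, was detected in the control (32.7) and was not well above background with BP5 (17.7) or BSP-II (23.3). MMP7, MMP27 and MMP28 were not detected. TIMP2, an inhibitor of MMPs that also takes part in MMP2 activation, had 137.3 with BP5, 135.5 with BSP-II and 136.5 in the control. In scaled signal this was the narrowest spread of the 16 members detected on all arrays. With the median of neighbouring probes subtracted, the log2 ratio of TIMP2 to control was 0.26 with BP5 and 0.22 with BSP-II. OPCML, an adhesion molecule of the IgLON family known from the nervous system, had 68.4 with BP5 and 64.7 with BSP-II, and 10.9, not well above background, in the control.

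**Figure D2:**
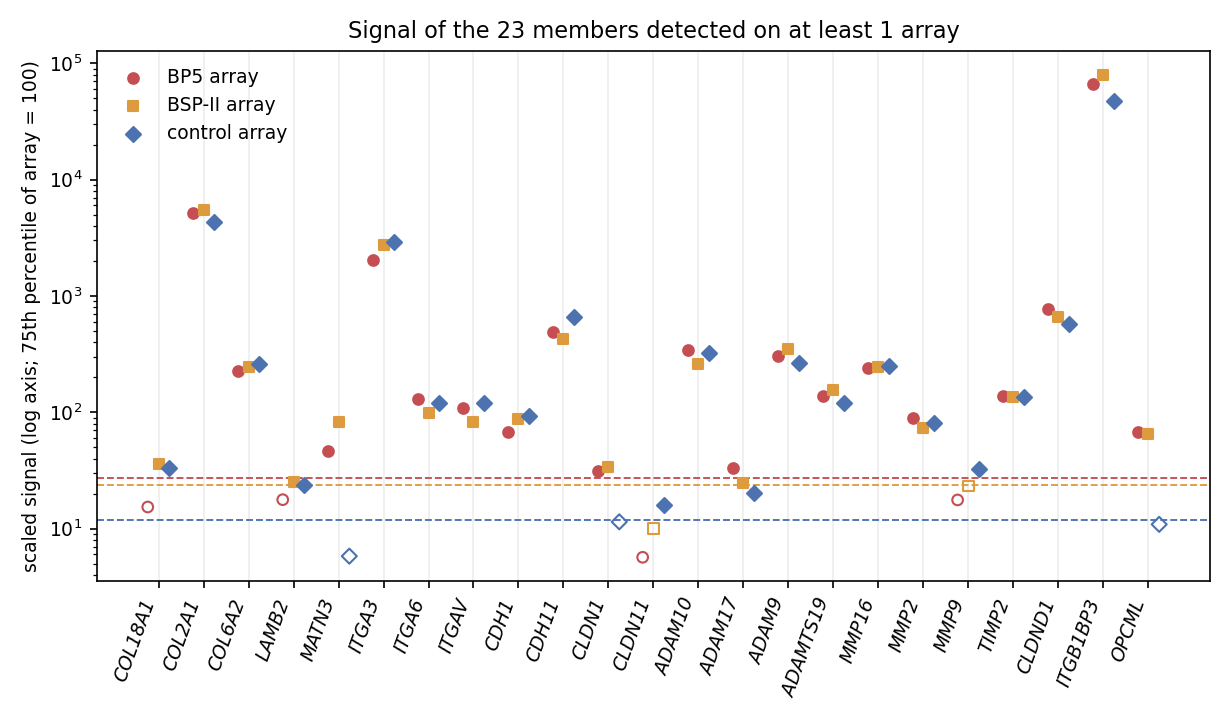
Scaled signal (log axis, 100 is the 75th percentile of the array) of the 23 members detected on at least 1 array, by array. Filled symbols were well above background and open symbols were not, and dashed lines mark the lowest detected signal of each array (27.5, 23.8 and 11.9). Heights of different genes cannot be compared, since they come from different probes.

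The first comparison asked which of the genes differ after 4 h of BP5. None of the 16 members measured on both arrays reached a 2-fold difference in either direction. Among the 2578 genes measured on both, 2.91% passed 2-fold upward and 3.76% downward. The largest ratio was that of ADAM17, with a log2 ratio of 0.70 ± 0.36, where ± is the scanner software's error of both spots and covers neither culture nor labelling. ITGB1BP3 (0.49 ± 0.20) and CLDND1 (0.42 ± 0.20) followed. The control signal of ADAM17, 20.3, is lower than the BP5 detection limit of 27.5, so its ratio, once measured, could only be positive. With normexp background correction and quantile normalization the ratio of ADAM17 was 0.23 and that of ITGB1BP3 was 0.15. The lowest ratios were those of ITGA3 (-0.51 ± 0.20), CDH1 (-0.46 ± 0.24) and CDH11 (-0.44 ± 0.20). Subtracting the median of neighbouring probes gave -0.22, -0.23 and -0.56, and subtracting the column median gave -0.47, -0.19 and -0.19. After the column subtraction CDH1 and CDH11 were smaller than their spot errors.

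The remaining ratios with BP5 lay between -0.22 (COL6A2) and 0.25 (COL2A1). The median log2 ratio was 0.10 over the 16 members and -0.09 over all measured genes. The median size of a ratio, regardless of sign, was 0.22 for the members and 0.31 for all genes. All 16 members lay inside the central 95% of measured genes (-1.15 to 1.07), and in 8 of them the ratio was larger than its own spot error. Taking the scaling percentile over probes detected on all 3 arrays moved the median of all genes to 0.04. It also turned the split of all genes past 2-fold, to 97 higher and 73 lower against 75 higher and 97 lower. The sign of the BP5 ratio held under every alternative for 9 of the 16 members: ADAM9, ADAM17, CDH1, CDH11, CLDND1, ITGA3, ITGA6, ITGB1BP3 and TIMP2. Some alternatives could not change a ratio that rests on 1 probe. The ratios of TIMP2 (0.01 ± 0.21) and ITGA6 (0.12 ± 0.21) were smaller than their spot errors. The sign of the ADAM17 ratio as reported was set by the detection limits, so its place among the 9 was in part fixed in advance.

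For BSP-II the same control array was the reference. None of 18 members measured on both arrays reached 2-fold, while 2.79% of 2615 genes did so upward and 2.14% downward. The highest ratios were those of ITGB1BP3 (0.74 ± 0.20), ADAM9 (0.39 ± 0.20) and ADAMTS19 (0.37 ± 0.21). With normexp background correction and quantile normalization ITGB1BP3 had 0.11, lower than ADAM9 (0.35) and ADAMTS19 (0.22). The lowest were those of CDH11 (-0.64 ± 0.20), ITGAV (-0.52 ± 0.22) and ADAM10 (-0.31 ± 0.21). The others lay between -0.28 (ITGA6) and 0.32 (COL2A1).

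With BSP-II the median was -0.03 over the members and 0.01 over all measured genes, and the median size of a ratio was 0.24 against 0.27. All 18 lay inside the central 95% of measured genes (-0.93 to 1.03). Again 8 ratios exceeded their own spot error. CDH11 had negative ratios in both comparisons, which share the control array. ITGAV had -0.13 with BP5 and -0.52 with BSP-II, and ITGA3 -0.51 with BP5 and -0.07 with BSP-II.

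**Figure D3:**
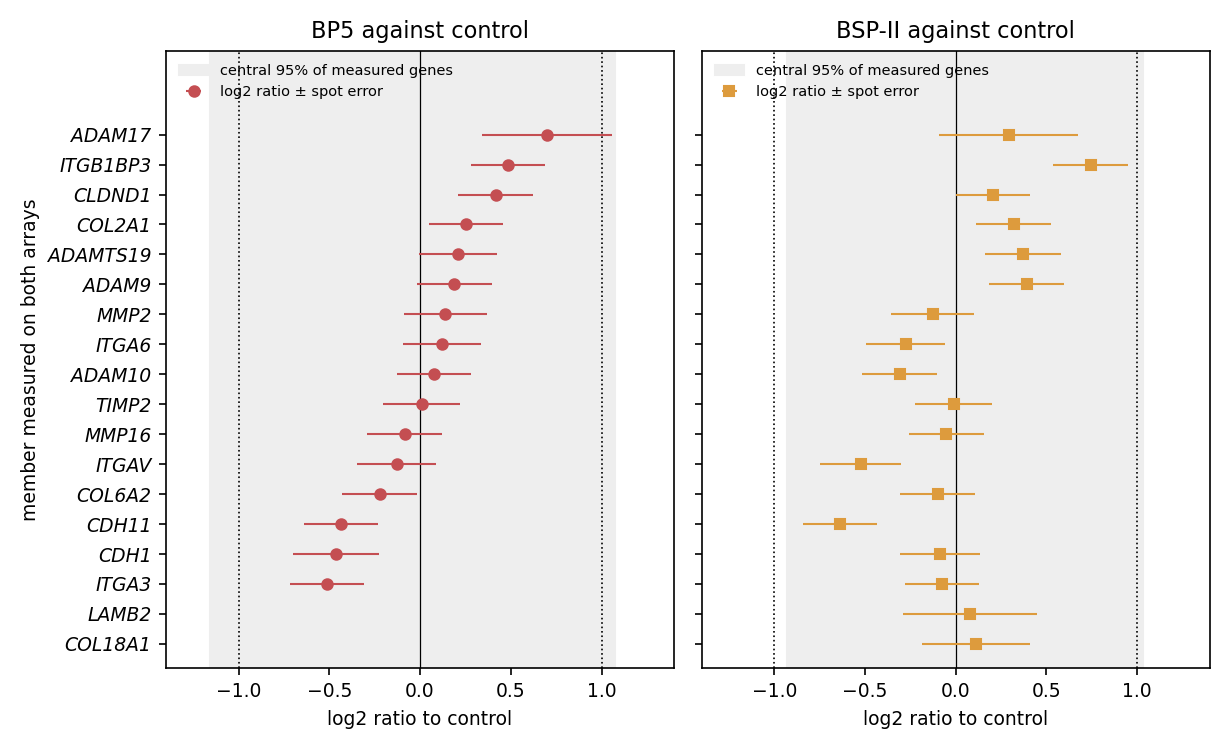
Log2 ratio to control of each member measured on both arrays, with the scanner software's spot error as bars, for BP5 (left) and BSP-II (right). Grey marks the central 95% of all measured genes and dotted lines mark 2-fold. Every member lies inside both, from -0.51 to 0.70 with BP5 and from -0.64 to 0.74 with BSP-II.

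The peptide arrays were also set beside each other, within scan 2, but each was given at its own dose. Peptide and dose cannot be told apart here. Of 19 members measured on both, none reached 2-fold, against 0.117% of 2569 genes higher with BP5 and 1.48% lower. Of the 19, 18 lay inside the central 95% of measured genes (-0.82 to 0.55), and MATN3 lay just below it. The widest difference was that of MATN3, with a log2 ratio of BP5 to BSP-II of -0.83 ± 0.28. ITGA3 (-0.44 ± 0.20) and CDH1 (-0.38 ± 0.25) were next below it, and ADAM17 (0.41 ± 0.42), ITGA6 (0.40 ± 0.22) and ITGAV (0.39 ± 0.23) were at the other end. The ratio of ADAM17 was no larger than its spot error. That of MATN3 was -0.44 with normexp background correction and quantile normalization. The BP5 signal of MATN3 was 1.68 times the detection limit, on a spot in edge column 1. OPCML (0.08 ± 0.26) and CLDN1 (-0.10 ± 0.38) differed by less than their spot errors between the peptides. The median over the members was -0.03 and over all measured genes -0.11.

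Members detected on only 1 array of a pair have no ratio but a bound, taken against the higher of the dim signal and the lowest detected signal of that array. With BP5, 3 such members of 7 had a bound of at least 2-fold and all were higher: OPCML at least 5.77-fold, MATN3 at least 3.89-fold and CLDN1 at least 2.65-fold. Of all 228 genes detected on 1 of these arrays, 5.26% had such a bound upward and 6.58% downward. The 228 include genes detected only in the control, so 5.26% is no passing rate for genes detected only with BP5. A gene detected with BP5 (27.5 or more) and at or below the control limit of 11.9 passes 2-fold by the limits alone. That these 3 bounds passed 2-fold was therefore set in advance by the unequal limits, and only their size beyond it is measured. The 4 members detected only in the control gave no bound of 2-fold, which there needs a control signal far above the higher limit of the BP5 array. COL18A1 was at least 1.22-fold lower and MMP9 at least 1.19-fold, and no bound could be given for LAMB2 and CLDN11.

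With BSP-II, 3 of 5 such members had a bound of at least 2-fold, again MATN3 (at least 6.92-fold higher), OPCML (at least 5.46-fold) and CLDN1 (at least 2.85-fold). Among all 191 genes of this kind 6.28% had such a bound upward and 6.81% downward. The 191 again include genes detected only in the control, so 6.28% is no passing rate for genes detected only with BSP-II. Here too the limits (23.8 with BSP-II and 11.9 in the control) put a gene detected only with the peptide at about 2-fold or more. MMP9 was at least 1.37-fold lower, and CLDN11 gave no bound. Between the peptides COL18A1 was at least 1.32-fold lower with BP5 and LAMB2 gave no bound. None of the 2 members reached 2-fold, against 1.27% of 79 genes upward and 2.53% downward. Both comparisons with the control rest on the same dim control spots.

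MATN3 lies in column 1 and OPCML in column 2, at the edge. Probes of column 1 had a median log2 ratio of 1.46 for BP5 and 1.58 for BSP-II, and probes of column 2 had 0.48 and 0.49, while those of columns further in lay between -0.30 and 0.26. Of the 12 named genes with a bound of at least 2-fold upward, 4 with BP5 and 5 with BSP-II lay in these columns, which hold 1.96% of named genes.

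After subtraction of the column median the bound of MATN3 was 1.41-fold with BP5 and 2.32-fold with BSP-II, and that of OPCML 4.15-fold and 3.89-fold. Subtraction of the median of neighbouring probes, most of which lie further in, gave 4.62-fold and 7.16-fold for MATN3 and 6.95-fold and 6.06-fold for OPCML. CLDN1 lies in column 39 and kept a bound of at least 2-fold under both subtractions (2.19 to 2.48). Its control signal was 0.97 times the lowest detected signal there. With normexp background correction and quantile normalization together, the bounds of CLDN1 were 1.34-fold and 1.32-fold, that of MATN3 with BP5 was 1.72-fold and that of OPCML with BSP-II was 1.87-fold. The part of array position in the result of MATN3 and OPCML beyond these values was not tested.

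**Figure D4:**
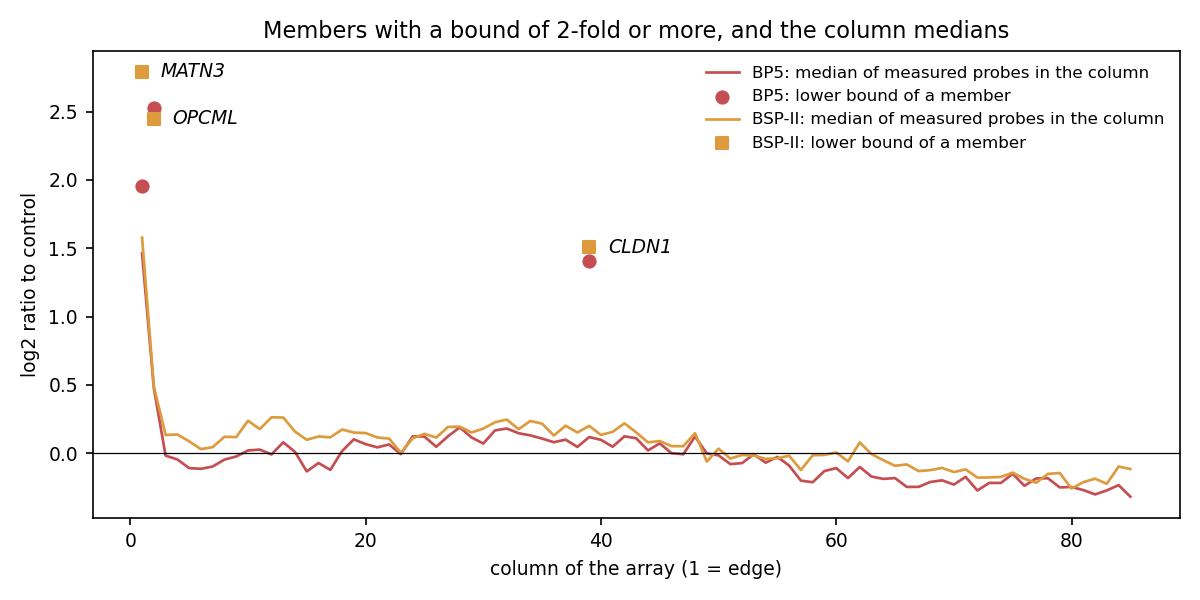
Median log2 ratio to control of the measured probes in each array column (lines), with the lower bounds of MATN3, OPCML and CLDN1 (symbols), for BP5 and BSP-II. The column medians stand at 1.46 and 1.58 in column 1 and within -0.32 and 0.26 from column 3 on.

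Of 43 genes listed for integrin adhesion, 14 had a named probe. They include links to actin, signalling proteins and the surface protein CD47. All 14 were detected on each array, against 66.9% of all named genes. Among them were talin (TLN1), vinculin (VCL), ILK, paxillin (PXN) and the actin crosslinker ACTN1. Of these 14, 2 were at least 2-fold higher with either peptide (over all measured genes 2.91% with BP5 and 2.79% with BSP-II) and 0 lower: the GTPase RAP1B (3.01 ± 0.27 with BP5 and 2.92 ± 0.27 with BSP-II) and the adaptor CRKL (1.17 ± 0.21 and 1.32 ± 0.21). CRKL lies in column 1, and with the column median subtracted it had -0.29 with BP5 and -0.26 with BSP-II, which turns its direction. With neighbouring probes subtracted it had 1.23 and 1.101. RAP1B lies in column 2 and had 2.54 and 2.43 with the column median subtracted. Its control signal was dim (20.2), lower than the detection limits of both peptide arrays (27.5 and 23.8). FLNA, an actin-binding filamin, had 0.88 and 0.66, PXN 0.32 and 0.75, and ACTN1 -0.56 and -0.16. The list's median was 0.30 with BP5 and 0.15 with BSP-II, against -0.09 and 0.01 over all measured genes.

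Of 30 cadherin and tight junction partners listed, 7 had a named probe. Of these 7, 4 were detected with BP5, 5 with BSP-II and 5 in the control, against 67.7%, 68.6% and 73.0% of all named genes. CTNNB1, which encodes beta-catenin, passed 2-fold upward with BP5 (1.02 ± 0.21) and had 0.47 ± 0.21 with BSP-II. After subtraction of neighbouring probes it had 0.77 with BP5. MAGI3, a scaffold protein of junctions, was at least 2-fold lower with BP5 (-1.21 ± 0.31) and had -0.92 ± 0.26 with BSP-II (-1.01 with the column median subtracted). OCLN, a tight junction protein, had 0.53 ± 0.36 with BSP-II. The medians of the list were -0.16 with BP5 and 0.30 with BSP-II, against -0.09 and 0.01 over all measured genes.

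Of 22 genes listed for collagen folding and crosslinking, 6 had a named probe. Of these 6, 3 were detected with BP5, 3 with BSP-II and 4 in the control, against 67.7%, 68.6% and 73.0% of all named genes. The collagen chaperone SERPINH1 had ratios of -0.01 ± 0.21 with BP5 and 0.31 ± 0.21 with BSP-II. The collagen hydroxylases P3H1 (0.15 and 0.24) and PLOD1 (-0.04 and 0.03) were likewise within 2-fold. Of 52 other matrix glycoproteins and proteoglycans listed, 22 had a named probe. Of these 22, 2 were detected with BP5, 3 with BSP-II and 6 in the control, against 67.7%, 68.6% and 73.0% of all named genes. NCAN, a proteoglycan of brain matrix, was at least 2-fold higher with BSP-II (1.01 ± 0.22, or 0.89 with the column median subtracted) and had 0.11 ± 0.25 with BP5. The difference between the peptides, -0.90 ± 0.25 for BP5 over BSP-II, was within 2-fold. FMOD, fibromodulin, was at least 2.35-fold lower with BP5 and had 0.47 ± 0.22 with BSP-II. Between the peptides it was at least 3.25-fold lower with BP5.

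Of 17 neural adhesion genes listed, the group to which OPCML belongs, 9 had a named probe. Of these 9, 4 were detected with BP5, 6 with BSP-II and 5 in the control, against 67.7%, 68.6% and 73.0% of all named genes. NCAM1 passed 2-fold upward with either peptide (1.26 ± 0.45 with BP5 and 1.53 ± 0.40 with BSP-II), over a control signal of 11.9 at the limit of detection. A signal detected with a peptide, at least 27.5 with BP5 and 23.8 with BSP-II, is about 2-fold above that control or more by the limits alone. NEGR1, an IgLON protein like OPCML, had 0.97 ± 0.20 and 0.50 ± 0.20. LSAMP, also an IgLON, was at least 2.70-fold higher with BSP-II, a bound that the unequal limits alone put at about 2-fold or more. Of 27 genes listed for adhesion of lymphoid cells, 10 had a named probe. Against 66.9% of all named genes, 7 of these 10 were detected on each array. Among them the chemokine receptor CXCR4 had 0.31 with BP5 and 0.46 with BSP-II, the tetraspanin CD81 0.32 and 0.83, and CD9, CD36 and ITGB2 were not detected.

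The cell type behind these signals was checked against marker lists, counting only genes with a named probe. These were 14 of 24 listed for B cells, 7 of 16 for fibroblasts, 9 of 14 for cartilage and bone and 9 of 15 for epithelium. For endothelium 3 of 11 had a named probe, and for macrophages and granulocytes 10 of 17. For thrombocytes and erythroid cells 2 of 15 had one, and for T and NK cells 8 of 14. Over all named genes 67.7% were detected with BP5, 68.6% with BSP-II and 73.0% in the control. Of 14 B cell markers, 9 were detected with BP5, 9 with BSP-II and 11 in the control. Among them were BTK, SYK, POU2AF1 and the J chain gene JCHAIN. The probes of PAX5, EBF1 and CD79B, which define B cells, were undetected on all 3 arrays. Whether these probes can read their transcripts was not tested, and the same holds for the probes of undetected members. LY86, a partner of the Toll-like receptor relative CD180, had log2 ratios of 1.06 ± 0.21 with BP5 and 1.08 ± 0.21 with BSP-II. The summed scaled signal of the list, which sets the same probes against themselves between arrays, was 33177 with BP5, 34067 with BSP-II and 27224 in the control. On each array JCHAIN and IRF4 made up most of it (16645 and 8797 in the control). All such sums also hold the signals of undetected probes.

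Of 7 fibroblast markers only THY1 was detected, and COL1A2, COL3A1, DCN and PDGFRA were not. The list summed to 536.5 with BP5, 583.5 with BSP-II and 315.6 in the control. The endothelial markers KDR, CDH5 and CLDN5 were undetected, 0 of 3 on each array, so their sums (34.8 with BP5, 32.0 with BSP-II and 9.59 in the control) hold no detected signal and give no fold. Of 9 cartilage and bone markers, 3 were detected with BP5, 3 with BSP-II and 2 in the control, with sums of 5318, 5599 and 4428. COL2A1, itself a member, made up most of these sums (5196, 5436 and 4359). Of 9 epithelial markers, 6 were detected with BP5, 6 with BSP-II and 5 in the control, among them EPCAM and CDH1, with a summed signal of 776.9 with BP5, 779.3 with BSP-II and 687.2 in the control. KRT5, KRT14 and CLDN5 were not detected on any array. Of 10 macrophage and granulocyte markers, 3 were detected with BP5, 3 with BSP-II and 4 in the control. LYZ, CYBB and CEBPB were detected on every array and MMP9 in the control. The defining factor SPI1 and MARCO, CSF3R, TLR4, MMP7 and LYG2 were not detected. The list's summed signal was 294.3 with BP5, 400.5 with BSP-II and 361.4 in the control. Of 8 T and NK cell markers, CD3D and CD247 were detected on every array, with a summed signal of 1339 with BP5, 1760 with BSP-II and 1571 in the control. CD3E, CD4, CD8A, CD28, GATA3 and CD5 were not detected. Of 2 thrombocyte and erythroid markers, TUBB1 was detected with either peptide and both genes in the control, with sums of 511.6 with BP5, 639.3 with BSP-II and 1007 in the control. TUBB1, a tubulin of thrombocytes, had -1.003 ± 0.20 with BP5 and -0.67 ± 0.20 with BSP-II. With neighbouring probes subtracted it had -0.59 with BP5. The part of any other cell type in the members' signals was not tested.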

How the data were processed

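The 3 arrays were one-colour Agilent arrays, 1 each for BP5, BSP-II and untreated DT40 cells. Per the file headers, the deposited intensity is a processed signal from which Feature Extraction (10.5.1.1, per the submitters' processing notes) took background and a spatial trend, and the dimmest spots share 1 floor value. No scaling between arrays had been applied. Detection, saturation and outlier flags are the deposited flags of that software. A deposited table of the authors holds log2 values for 20085 probes, with a median of 7.75 in each column. How it was normalized is not given, and it served as an alternative.

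Each array held 43451 spots. Control spots (1417) and 153 probes with an outlier flag, none of a member, were left out. The 75th percentile of the signal was 178.7 (BP5), 154.1 (BSP-II) and 254.8 (control). Of 5017 probes with a RefSeq accession, 4000 matched the GRCg7b gene table, used for names only. The measure was the log2 signal minus the log2 of that percentile. A gene's ratio was the mean over its probes well above background on both arrays. The steps were tested on simulated arrays with known fold changes.

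The labels speak of more than 1 experiment and population without tying them to the 3 arrays. The members, lists and rules were chosen with earlier results of these data known. The genes named were all detected members, the 3 largest ratios each way, all members past 2-fold by ratio or bound, and from each list the genes past 2-fold with up to 3 others of large ratio. Further list and marker genes were named after their values were seen. Normexp used the median spot signal with an offset of 50, since the mean is not among the columns used. Python 3.11.15, pandas 2.3.3, R 4.3.3 and limma 3.58.1 were used. No sequence is shown, because the tables used here hold none. The number of arrays limits the precision.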

Additional observations from a re-analysis of the deposited data

How the results depend on the processing

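No paired analysis was possible because each group had 1 array. None of the members measured on both arrays reached 2-fold under any alternative that kept the filter on dim probes: normexp with quantile normalization, quantile normalization alone, the other scaling percentile, the deposited table, the stricter filter, both position corrections, the edge left out and the brightest probe. Ratios under these lay between -0.56 and 0.83 with BP5, -0.64 and 0.83 with BSP-II, and -0.86 and 0.65 between the peptides. The sign held in every such setting for 9 of 16, 11 of 18 and 15 of 19 members. Each measured member had 1 probe. The stricter filter, the edge left out and the brightest probe could therefore only repeat a member's ratio or drop the member. Without the filter 23 members were at least 2-fold higher and 2 lower with BP5 (median 0.73), 21 higher with BSP-II (median 0.62), and 1 lower with BP5 than with BSP-II (median 0.21). Probes at the floor on both arrays enter those counts, and alone give 1.21 with BP5 and 1.01 with BSP-II. Over all genes, normexp with quantile normalization gave 28 higher and 45 lower with BP5 (75 and 97 as reported) and 30 and 26 with BSP-II (73 and 56). The stricter filter gave 42 and 66 with BP5 and 43 and 31 with BSP-II. Between the peptides, 38 lower genes became 22 with normexp and quantile normalization and 16 with neighbouring probes subtracted, and 3 higher genes 1 to 8 with the filter kept. Without the filter, 760 genes were higher and 178 lower with BP5, 740 and 127 with BSP-II, and 50 and 92 between the peptides. With the flag for positive signal in place of the well-above-background flag, 28 members were detected with BP5, 31 with BSP-II, 37 in the control and 39 on at least 1 array. Other definitions gave 14 to 23 with BP5, 16 to 23 with BSP-II and 15 to 23 in the control. Of all named genes they took in 57.9% to 73.5% with BP5, 59.4% to 73.5% with BSP-II and 65.2% to 73.7% in the control. With 1 common limit, added after the data were seen, 19, 19 and 17 members were detected (35.2%, 35.2% and 31.5%). That limit took in 67.7%, 67.8% and 67.3% of all named genes. Signals near the detection limit, as for ADAM17, LAMB2 and CLDN1, limit what can be said of them.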

Other observations

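The COL2A1 probe read 189.3 times the detection limit with BP5, 228.5 times with BSP-II and 367.6 times in the control, while COL9A1 and MATN1 lay at the floor and SOX9, HAPLN1, SPP1 and IBSP were undetected on all 3 arrays. These multiples rest on a different limit for each array and cannot be compared between arrays. The scaled signal of COL2A1 was lowest in the control (4359, against 5196 with BP5 and 5436 with BSP-II). Probes around COL2A1 had median log2 ratios to control of 0.33 with BP5 and 0.23 with BSP-II. Once these were subtracted, the ratio of COL2A1 was -0.08 with BP5 and 0.09 with BSP-II. Only RUNX2 and MATN3 joined COL2A1 among the 9 cartilage and bone markers with a named probe. A second COL2A1 probe was not among those named here, so the signal rests on 1 probe.

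The ITGA3 probe read 74.2 times the limit with BP5, 116.2 times with BSP-II and 245.3 times in the control, while ITGA1, ITGA8, ITGB2 and ITGB5 were not detected. These multiples too cannot be compared between arrays. The scaled signals of ITGA3 were 2036, 2764 and 2909. The fibroblast marker THY1, also an antigen of lymphoid cells in some species, had log2 ratios of 0.78 ± 0.20 with BP5 and 0.89 ± 0.20 with BSP-II, below 2-fold in both. With neighbouring probes subtracted they were 1.11 and 1.06, past 2-fold in both, and with the column median subtracted 0.99 and 1.06. CLDN3, a claudin outside the set above, had 1.23 ± 0.21 with BP5 and 0.89 ± 0.21 with BSP-II.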
